A study of Homo sapiens with 4 samples.

Results

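Exons of clone-named and noncoding genes were taken from a table of cassette exon events in HEK293T cells, a human embryonic kidney line. A gene was a member if its symbol was a clone or sequence name (RP, CTA to CTD, AC, AL or AP followed by digits), a LINC number, or ended in -AS and a digit. The rule gave 629 unique exons in 763 events of 319 genes, out of 27483 exons in 31408 events of 9172 genes. The rule used names alone and no measured value. The label holds for most but not all of them: GENCODE 29 annotates 56 of the genes, with 106 exons, as protein coding. A current name other than the listed one was found for 142 genes.

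The 4 libraries were total RNA depleted of ribosomal RNA, from 2 WT clones and 2 RBFOX2 KO clones. The labels give all 4 samples the same protocol: transfection with PX459, a Cas9 plasmid, and with pgRGFP carrying guides to either side of RBFOX2, sorting of single cells, and genotyping of the clones by PCR. Each library is thus 1 clone, and a difference between sets can hold differences between clones. The comparison asks which cassette exons change in inclusion when RBFOX2, also called RBM9, is lost.

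Each event of the authors' deposited table carries a p-value, its FDR (false discovery rate) and an inclusion difference. Inclusion runs from 0 to 1: it is the part of an exon's junction reads, scaled by length, in which the exon is kept. The difference is read as the mean of the first set of libraries minus that of the second. Neither header nor labels say which set is WT, so no direction is given by genotype. Library columns could not be tied to samples, so values, depth and spread per library are not given. RBFOX2 itself has 0 events in the table, so the knockout could not be checked there.

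Long noncoding RNAs are transcribed and spliced like messenger RNAs but carry no long conserved reading frame, and their exons are often joined in many combinations. Antisense RNAs overlap or neighbour a gene on the other strand, pseudogenes are copies of other genes, and readthrough genes join exons of neighbouring genes, so reads of these classes can belong to more than 1 gene. RBFOX proteins bind GCATG in RNA and are known to promote or repress nearby exons according to the side on which they bind.

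The exons on which the results below turn are printed 5′ to 3′ as they stand in GENCODE 29 transcripts, with GRCh38 positions. They were found by gene and by the lengths of the exon and of the introns around it. Positions printed beside results are those of the deposited table, on hg19 per the submitters' processing notes. The DUXAP exons come first and show how alike the copies are, with the base that differs between the 3 loci in capitals.
DUXAP8 111 nt, chr22:15787172-15787282 (plus strand): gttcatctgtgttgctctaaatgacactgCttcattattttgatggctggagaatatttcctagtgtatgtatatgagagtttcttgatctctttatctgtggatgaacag
DUXAP9 111 nt, chr14:19064583-19064693 (plus strand): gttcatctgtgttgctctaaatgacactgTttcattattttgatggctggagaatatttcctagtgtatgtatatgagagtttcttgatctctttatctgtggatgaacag
DUXAP10 111 nt, chr14:19335352-19335462 (minus strand): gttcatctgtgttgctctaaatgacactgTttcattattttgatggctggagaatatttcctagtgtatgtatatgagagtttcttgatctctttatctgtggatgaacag
DUXAP8 138 nt, chr22:15790661-15790798 (plus strand): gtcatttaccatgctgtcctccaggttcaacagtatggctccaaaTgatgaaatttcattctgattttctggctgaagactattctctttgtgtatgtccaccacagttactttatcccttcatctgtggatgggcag
DUXAP9 138 nt, chr14:19068077-19068214 (plus strand): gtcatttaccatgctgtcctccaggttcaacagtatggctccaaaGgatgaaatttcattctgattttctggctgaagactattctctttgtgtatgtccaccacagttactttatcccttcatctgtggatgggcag
Counted from 1 at the 5′ end, the DUXAP8 exon of 111 nt differs from both other copies by C30T, and the DUXAP8 exon of 138 nt by T46G, the DUXAP8 base being given first. The DUXAP10 exon of 138 nt is identical to that of DUXAP9.

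Nested exons, of which a longer and a shorter form were both called, come next, and the capitals are the bases that the shorter form lacks. The DUXAP8 exon of 148 nt has 33 more bases at its 5′ end than the form of 115 nt. The PCBP1-AS1 exon of 181 nt has 31 more bases at its 3′ end than the form of 150 nt.
DUXAP8 148 nt, chr22:15788552-15788699 (plus strand): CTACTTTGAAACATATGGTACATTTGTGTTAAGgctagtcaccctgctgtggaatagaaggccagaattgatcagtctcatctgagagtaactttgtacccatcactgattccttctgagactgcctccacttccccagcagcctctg
PCBP1-AS1 181 nt, chr2:70083507-70083687 (minus strand): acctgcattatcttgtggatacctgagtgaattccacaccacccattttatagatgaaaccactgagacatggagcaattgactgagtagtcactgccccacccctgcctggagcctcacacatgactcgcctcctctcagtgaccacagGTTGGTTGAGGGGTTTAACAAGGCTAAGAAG

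The first and the last of the other called exons of PCBP1-AS1, from the 5′ to the 3′ end of the gene, follow with a called exon of RP11-267N12.3. GCATG is in capitals where it occurs.
PCBP1-AS1 81 nt, chr2:70077301-70077381 (minus strand): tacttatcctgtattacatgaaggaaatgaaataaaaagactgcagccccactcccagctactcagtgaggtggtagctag
PCBP1-AS1 123 nt, chr2:70032133-70032255 (minus strand): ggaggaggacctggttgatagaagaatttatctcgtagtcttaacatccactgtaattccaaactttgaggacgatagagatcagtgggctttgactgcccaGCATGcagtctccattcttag
RP11-267N12.3 88 nt, chr1:163308544-163308631 (minus strand): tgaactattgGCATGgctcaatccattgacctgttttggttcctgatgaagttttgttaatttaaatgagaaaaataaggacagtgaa

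Last come AC024560.3, which has the largest difference of the 4 exons with p listed as 0, all higher in the first set, and RP11-452F19.3, which has the lowest p-value of those higher in the second set, in both of which GCATG would be in capitals and does not occur, and the TTN-AS1 exon, in which the bases opposite an exon of TTN are in capitals.
AC024560.3 249 nt, chr3:197624472-197624720 (minus strand): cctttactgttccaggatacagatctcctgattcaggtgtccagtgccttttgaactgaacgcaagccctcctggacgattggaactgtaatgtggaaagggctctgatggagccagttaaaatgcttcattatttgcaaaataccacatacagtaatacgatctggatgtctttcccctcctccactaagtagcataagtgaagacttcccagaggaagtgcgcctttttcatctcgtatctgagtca
RP11-452F19.3 174 nt, chr1:222827428-222827601 (plus strand): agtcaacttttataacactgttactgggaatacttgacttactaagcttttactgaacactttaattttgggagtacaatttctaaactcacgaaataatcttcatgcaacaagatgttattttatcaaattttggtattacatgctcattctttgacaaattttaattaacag
TTN-AS1 157 nt, chr2:178599594-178599750 (plus strand): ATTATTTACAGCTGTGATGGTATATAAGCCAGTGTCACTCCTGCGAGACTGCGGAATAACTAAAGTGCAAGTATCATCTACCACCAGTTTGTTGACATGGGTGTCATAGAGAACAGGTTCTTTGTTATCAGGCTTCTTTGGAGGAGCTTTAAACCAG

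An event was called if its FDR was under 0.05 and its difference was 0.1 or more in size, and an exon was called if any of its events was. The test is the one whose FDR the authors deposited. Of the 629 exons, 58 were called, or 9.22% (Wilson 95% interval 7.2 to 11.7), beside 5.73% of all exons of the table. By events the share was 61 of 763 (7.99%), beside 5.15% of all events. By genes it was 39 of 319 (12.2%), beside 13.7% of all genes, so the share lay above the background for exons and below it for genes. Member genes listed fewer exons each (629 in 319 genes, beside 27483 in 9172). A gene counts as called if any of its events is, so the shares by gene are not like for like. Inclusion was higher in the first set for 28 of the called exons and in the second set for 30, beside 3.08% and 2.65% of all exons. The share higher in the first set was 48.3% (35.9 to 60.8), beside 53.7% of all called exons.

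Of the genes with calls, PCBP1-AS1, an antisense RNA gene beside the RNA-binding protein gene PCBP1, held 6 of the 58 called exons, and 3 DUXAP genes, copies of a double homeobox pseudogene, held 10. Without these 4 genes, 42 of 597 exons were called (7.04%, 5.25 to 9.37). In all, 10 genes with at least 2 called exons held 29 calls, and 7 of these 10 had calls in both directions. The other 29 calls lay in as many genes, and 182 of the 319 genes had a single listed exon.

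**Figure D1:**
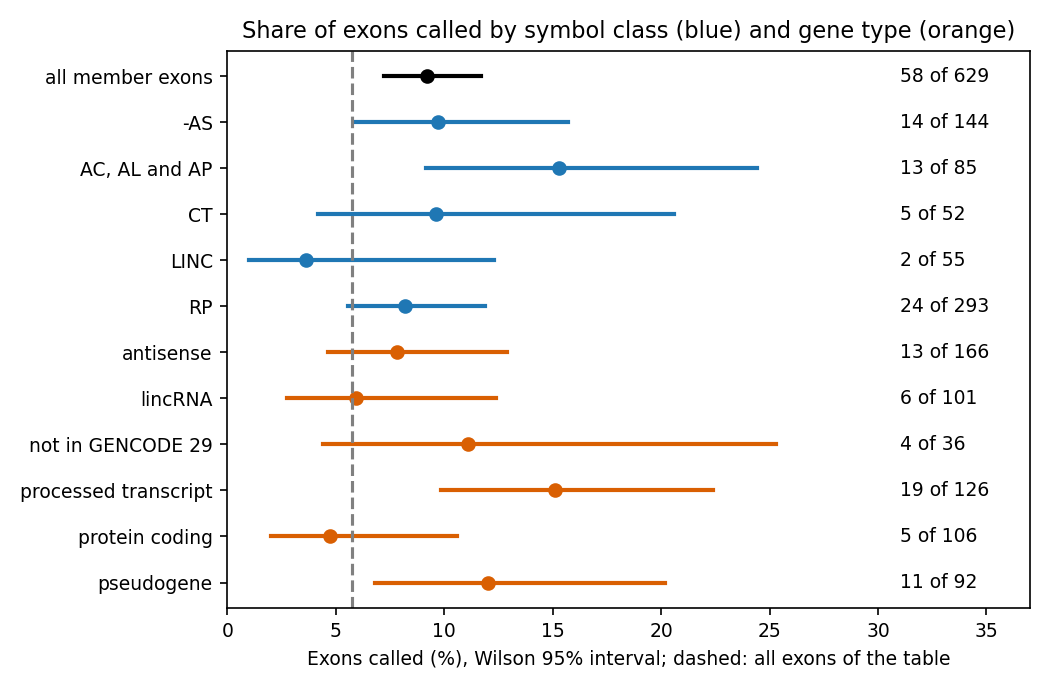
Share of exons called (%, x axis) for all 629 member exons, for each symbol class (blue) and for each GENCODE 29 gene type with at least 20 exons (orange). Points are shares and bars are Wilson 95% intervals, and the dashed line is the 5.73% of all exons of the table. The intervals of all member exons, of the -AS, AC, AL and AP symbols, of processed transcripts and of pseudogenes lie above the line, while those of LINC and protein-coding genes cross it with shares below it. The -AS interval clears the line only narrowly (lower bound 5.88%), and PCBP1-AS1 alone holds 6 of its 14 called exons. PCBP1-AS1 and the DUXAP genes also hold many of the calls in the other groups above the line.

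By symbol, genes named AC, AL or AP had 13 of 85 exons called (15.3%, 9.16 to 24.4), the -AS genes 14 of 144 (9.72%, 5.88 to 15.7) and the CT clones 5 of 52 (9.62%, 4.18 to 20.6). The RP clones had 24 of 293 (8.19%, 5.57 to 11.9) and the LINC genes 2 of 55 (3.64%, 1 to 12.3), the latter both in LINC00969. By gene type, processed transcripts had 19 of 126 called (15.1%, 9.87 to 22.4), pseudogenes 11 of 92 (12%, 6.81 to 20.2), antisense genes 13 of 166 (7.83%, 4.63 to 12.9) and lincRNA genes 6 of 101 (5.94%, 2.75 to 12.4). Protein-coding genes had 5 of 106 (4.72%, 2.03 to 10.6), with all 5 higher in the second set. The classes overlap widely in their intervals, and no test between them was made. PCBP1-AS1 and AP000525.9 supply 12 of the 19 called exons among processed transcripts, and 2 DUXAP genes 8 of the 13 under AC, AL or AP names. PCBP1-AS1 alone supplies 6 of the 14 called -AS exons. AL589743.1 and CTD-2314B22.3, both DUXAP genes, supply 2 each of the 11 called pseudogene exons. The shares of these 4 groups thus rest in large part on a few genes.

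Listed differences of member events were larger than those of the table, but mostly without a low p-value. In the authors' deposited table the median absolute difference was 0.199 over the 763 events and 0.048 over all events. An absolute difference of at least 0.1 was listed for 531 events (69.6%, against 31.5% of all events), and 470 of these (88.5%) had an FDR of at least 0.05, beside 83.6% over the table. A difference of 1 in size, that is full inclusion in either set and none in the other, was listed for 69 events (9.04%, against 1.7%). Of these 69, 68 had a p of 1 and only the PCBP1-AS1 exon of 123 nt was called. A p of 1 was given to 438 events (57.4%, against 51.4%). Reads behind each event were not used here, so their part in these differences was not tested. Among called exons the median absolute difference was 0.321, beside 0.271 over all called exons, and 12 of the 58 (20.7%) reached 0.5, beside 18.5%.

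**Figure D2:**
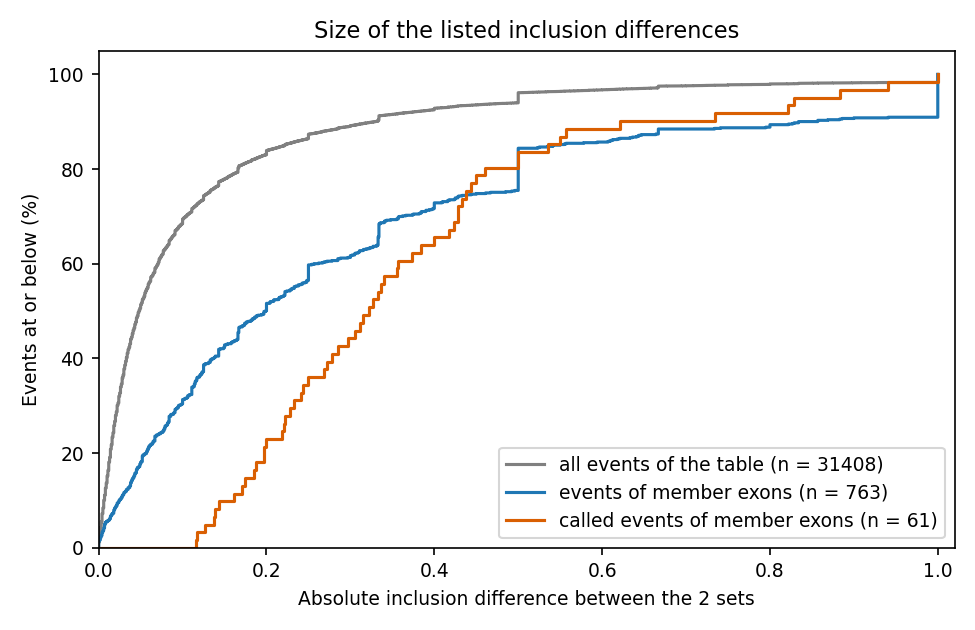
Cumulative share of events (%, y axis) at or below each absolute inclusion difference between the 2 sets (x axis, 0 to 1), for all 31408 events, the 763 member events and the 61 called member events. The member curve lies to the right of that of the whole table, with medians of 0.199 and 0.048 and a step of 69 events at a difference of 1.

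**Figure D3:**
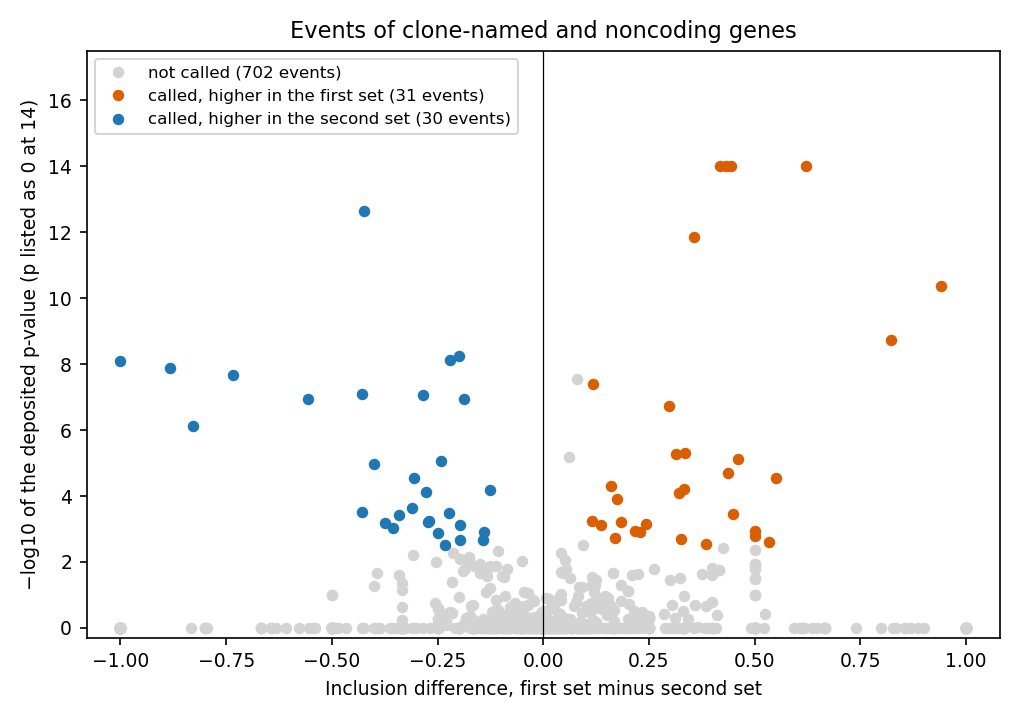
Inclusion difference (x axis, first minus second set) against −log10 of the deposited p-value (y axis) for the 763 member events. Called events are orange where higher in the first set (31 events) and blue where higher in the second (30 events), and 4 events with p listed as 0 are drawn at 14. Events at −1 and 1 lie on the bottom line except the called PCBP1-AS1 exon at −1.

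The DUXAP genes had calls in opposite directions in near-identical exons. By their gene identifiers AP000525.9 is DUXAP8 on chromosome 22, and AL589743.1 and CTD-2314B22.3 are DUXAP9 and DUXAP10 on chromosome 14. DUXAP8 had 16 events of 8 exons in the authors' deposited table, of which 13 were higher in the first set, with a median difference of 0.279. AL589743.1 had 10 events of 7 exons, of which 8 were higher in the second set, with a median of -0.213 in the authors' deposited table. For CTD-2314B22.3, 3 of 9 events were higher in the first set, with a median of -0.1 in the authors' deposited table. DUXAP8 had 5 called exons higher in the first set and 1 lower there, AL589743.1 had 0 and 2, and CTD-2314B22.3 had 2 and 0. The 3 genes thus did not share a direction.

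Among DUXAP8 exons, the authors' deposited table lists 0.418 for the exon of 115 nt (chr22:16189264-16189378, p listed as 0) and 0.357 for its longer form of 148 nt (p = 1.45e-12). Both are joined to the same next exon. The exon of 114 nt had 0.822 in the authors' deposited table (p = 1.84e-09) and the form of 138 nt, which has 24 more bases at its 5′ end, 0.336 (p = 5.13e-06). The only DUXAP8 call in the other direction was the exon of 136 nt, at -0.269 (p = 0.000561) in the authors' deposited table, while its events with other upstream exons were listed at 0.857 and 0.5, each with a p of 1.

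The copies of 2 exons were called in opposite directions. For the exon of 111 nt, these calls have the exon of 112 nt as the next exon. The authors' deposited table gives 0.117 in DUXAP8 (p = 3.93e-08) and -0.355 in AL589743.1 (p = 0.00091) there. With the exon of 148 nt next, the authors' deposited table gives 0.041 in DUXAP8 (p = 0.0946) and 0.079 in AL589743.1, neither called. The event of CTD-2314B22.3 also has the exon of 148 nt next, at -0.076 (p = 0.915) in the authors' deposited table. For the exon of 138 nt the difference is 0.336 in DUXAP8 and -0.557 in AL589743.1 (p = 1.17e-07), both from the authors' deposited table. The copies of the exon of 148 nt were called in the same direction, at 0.357 in DUXAP8 and 0.45 in CTD-2314B22.3 (p = 0.000341), while the events of AL589743.1 were at -0.178 (p = 0.0089) and -0.045 (p = 1) in the authors' deposited table. The exon of 112 nt was called in CTD-2314B22.3 alone, at 0.438 (p = 2.01e-05), and its other event there, with another downstream exon, was at -0.15 (p = 0.0114) in the authors' deposited table. Its copies were at -0.176 (p = 0.00837) and 0.067 (p = 1) in DUXAP8 and at -0.166 (p = 1) in AL589743.1 in the authors' deposited table. Differences between the copies themselves were not tested.

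**Figure D4:**
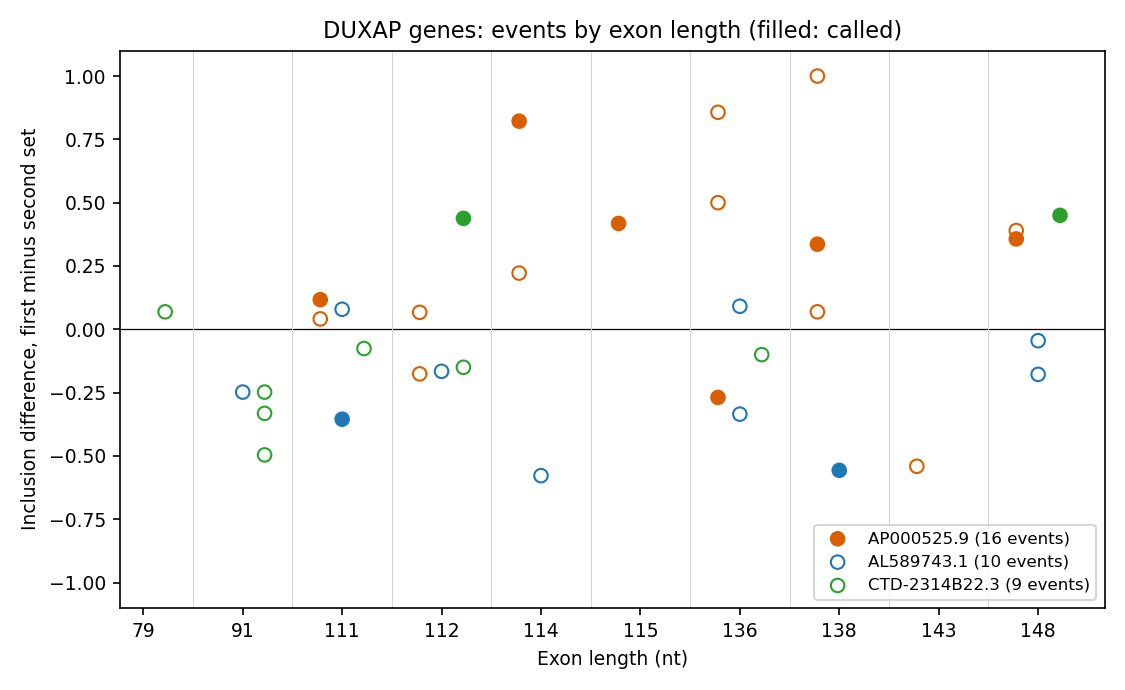
Inclusion difference (y axis, first minus second set) of the 35 events of the 3 DUXAP genes, arranged by exon length in nt (x axis). Each point is an event, filled if called, in orange for AP000525.9, blue for AL589743.1 and green for CTD-2314B22.3. At 111 and 138 nt the filled orange points lie above 0 and the filled blue points below it.

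The DUXAP exons share nearly all of their sequence. In GENCODE 29, 22 pairs of same-length exons could be compared between the 3 loci, of which 15 were identical and the others differed by 1 substitution, with at least 99.1% identity. The names and the structures also disagree on chromosome 14. By exon and intron lengths 4 of 7 exons of AL589743.1 match DUXAP10 and 4 of 6 of CTD-2314B22.3 match DUXAP9, and 0 match the gene of their own identifier. DUXAP8 lies on the minus strand in the table and on the plus strand in GRCh38. A read that spans an exon of this family can therefore fit several loci, and how such reads were placed is not given in the sources used here.

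PCBP1-AS1 had the most listed exons of any member gene, 11 in 33 events. TTN-AS1 followed with 10 and AC004158.2, now LINC01572, with 9, of which 0 were called. In PCBP1-AS1, 9 events of 6 exons were called, 6 of the events being higher in the first set. Of the 14 events that join an exon to the same upstream exon, which starts at chr2:70312679, 8 were called. The exons of 150 and 181 nt, nested forms at chr2:70310639-70310819, were higher in the first set by 0.444 and 0.433 in the authors' deposited table when the next exon was that of 38 nt, with p listed as 0 for both. With the exon of 197 nt or its longer form of 255 nt as the next exon, they were at 0.322 (p = 8.05e-05) and 0.333 (p = 6.04e-05) in the authors' deposited table. With the next exon ending at chr2:70278437 they were at -0.072 (p = 0.663) and -0.058 (p = 0.742), and with the exon of 81 nt at -0.111 (p = 1), in the authors' deposited table. The listed difference of the same exon thus ran from called to near 0 with the choice of its downstream partner.

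Further 3′, the exon of 81 nt (chr2:70304433-70304513) was listed at 0.941 (p = 4.26e-11) in the authors' deposited table, and its other 5 events lay between 0.059 and 1 without a call. The exon of 38 nt was the only member exon called in both directions: the authors' deposited table has -0.306 (p = 2.84e-05) with the downstream exon ending at chr2:70278437 and 0.218 (p = 0.00118) with the exon of 197 or 255 nt. The exon of 197 nt was at -0.4 (p = 1.04e-05) in the authors' deposited table and the exon of 123 nt (chr2:70259265-70259387) at -1 (p = 7.79e-09). Other events of the exon of 197 nt were not called. With the exon of 38 nt upstream, the authors' deposited table has it at 0.2 (p = 0.0774) and, with the exon of 62 nt next, at -0.334 (p = 0.071). With the exons of 150 and 181 nt upstream it was at -0.8 and -1. Its form of 255 nt was at 0.2 (p = 0.0753) in the authors' deposited table. The events of the exons of 62, 85 and 264 nt, just downstream of the 197-nt exon, were all listed higher in the first set, at 0.384 to 0.425 in the authors' deposited table, with none called. Called events thus lay above 0 for exons near the 5′ end and below 0 for the exons of 197 and 123 nt. The exon of 38 nt between them was called in both directions. The listed sign of the exon of 197 nt changed with its partner exons, so the calls do not set position apart from the choice of partner. Neighbouring events share junction reads, since skipping of an exon is inclusion of the junction between others, so these calls are not independent of each other.

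**Figure D5:**
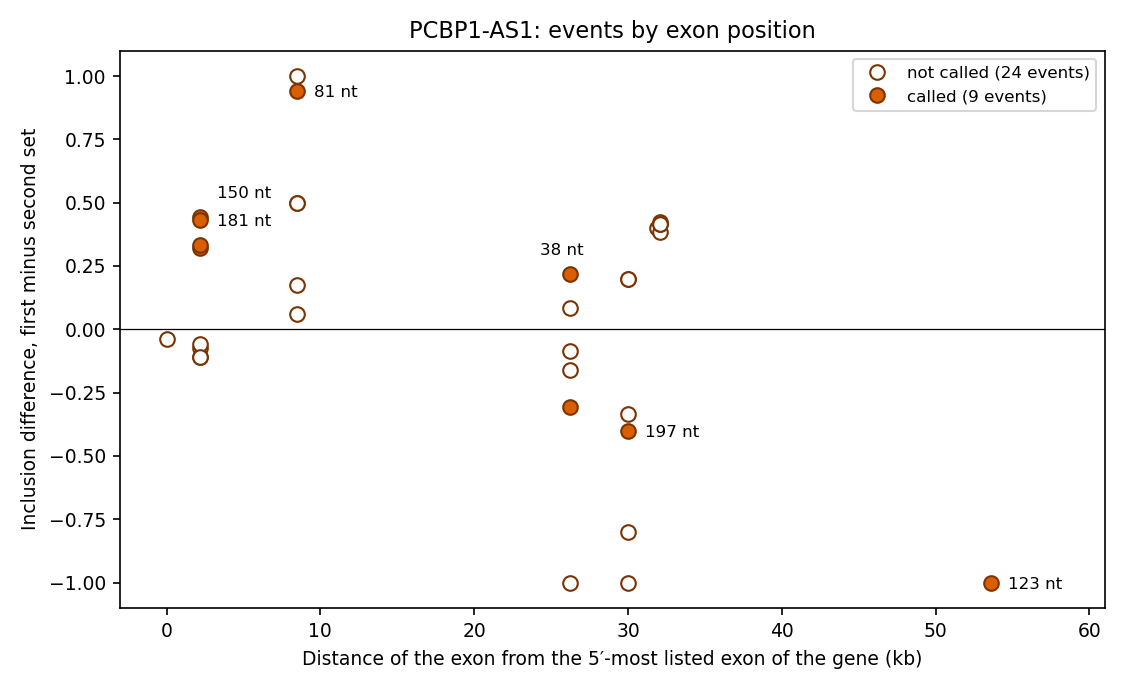
Inclusion difference (y axis, first minus second set) of the 33 events of PCBP1-AS1 against the distance in kb of the exon from the 5′-most listed exon of the gene (x axis). Filled points are the 9 called events, marked with the length of the exon. Called events within 10 kb lie above 0, the exon of 38 nt has a filled point on either side of 0, and the filled points of the exons of 197 and 123 nt lie below it.

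The -AS genes had called exons in 9 of 62 genes, PCBP1-AS1 among them, a share close to the 13.7% of all genes. TTN-AS1, antisense to the gene of the muscle protein titin, had its exon of 157 nt (chr2:179464321-179464477) at 0.297 (p = 1.9e-07) in the authors' deposited table. Another event of the same exon was at -0.334 with a p of 1 in the authors' deposited table. All 157 bases of this exon lie opposite an exon of TTN. ENTPD1-AS1, named for the ectonucleotidase gene ENTPD1, had an exon of 122 nt (chr10:97657315-97657436) at -0.199 (p = 5.75e-09) in the authors' deposited table, and CEBPZ-AS1, now the small protein gene CEBPZOS, an exon of 179 nt (chr2:37425637-37425815) at -0.188 (p = 1.13e-07).

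Among the rest of the -AS genes, MCM3AP-AS1 was at -0.374 (p = 0.000661), CKMT2-AS1 at -0.34 (p = 0.000365), UBL7-AS1 at -0.272 (p = 0.000595), UBA6-AS1 at -0.25 (p = 0.00135) and RASSF8-AS1 at 0.137 (p = 0.000753), all in the authors' deposited table. Of the 9 genes, TTN-AS1 and RASSF8-AS1 were thus higher in the first set, PCBP1-AS1 had calls in both directions, and the other 6 were higher in the second set. A listed exon of the gene named as sense partner was found for 39 of the 62 genes. Of the 9 called genes, 5 had a partner listed and 0 of these partners was called, a number too small to set against the 13.7% of all genes called. Of the 34 genes without a call whose partner was listed, 3 had a called partner (PXN, GNAS and SETD5), also too few to set against 13.7%. SETD5-AS1 is now named THUMPD3-AS1, so SETD5 is its partner by the listed symbol alone.

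RP clones that GENCODE 29 annotates as antisense gave further calls. RP11-35G9.5 had an exon of 610 nt (chr18:55398646-55399255) at -0.883 (p = 1.35e-08) in the authors' deposited table. RP5-886K2.3, now ELOA-AS1, had an exon of 159 nt (chr1:24098758-24098916) at 0.535 (p = 0.00245), and the clone-named gene now called PRANCR (ENSG00000257815) an exon of 139 nt (chr12:70636846-70636984) at 0.5 (p = 0.00164), both from the authors' deposited table. The PRANCR exon overlaps an exon of CNOT2, a subunit of the CCR4-NOT deadenylase complex, on the opposite strand.

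RP11-267N12.3 was the only gene whose called exons share their position with another listed gene. Its exons of 88 nt (chr1:163278334-163278421) and 110 nt (chr1:163288972-163289081) were at 0.327 (p = 0.00199) and -0.311 (p = 0.000234) in the authors' deposited table. Under RGS5, a regulator of G-protein signalling, the same exons have other flanking exons and were at 0.038 (p = 0.794) and -0.166 (p = 1) in the authors' deposited table. GENCODE 29 names both gene identifiers RGS5.

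Of the pseudogenes, AC024560.3, now SDHAP4 and a copy of the gene for a succinate dehydrogenase subunit, had the largest difference of the 4 member events with p listed as 0. This exon of 249 nt (chr3:197351343-197351591) was at 0.621 in the authors' deposited table. RP11-33B1.1, now the septin pseudogene SEPTIN7P14, was at -0.221 (p = 7.56e-09) in an exon of 200 nt (chr4:120379126-120379325) in the authors' deposited table. The clone-named cytochrome P450 pseudogene now called CYP4F33P (ENSG00000273036) was at 0.185 (p = 0.000618) in an exon of 107 nt in the authors' deposited table. This exon overlaps a listed exon of ANKRD18A on the same strand. RP11-22B23.1, now the helicase pseudogene DDX12B, had exons of 158 nt at -0.278 (p = 7.54e-05) and of 80 nt at 0.228 (p = 0.00123) in the authors' deposited table.

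Readthrough and protein-coding genes often share exons with a neighbour: 69 of the 85 matched exons of protein-coding member genes (81.2%) overlapped an exon of another gene on the same strand. AP000275.65, now CFAP298-TCP10L, had an exon of 216 nt (chr21:33954510-33954725) at -0.734 (p = 2.14e-08) in the authors' deposited table, and it overlaps an exon of TCP10L. RP11-849H4.2, now XNDC1N, had an exon of 167 nt (chr11:71634355-71634521) at -0.829 (p = 7.35e-07) in the authors' deposited table, and its event with another upstream exon was at 0.334 with a p of 1. RP4-769N13.6, now ARMCX5-GPRASP2 and annotated as a processed transcript, had exons of 113 nt at 0.315 (p = 5.38e-06), 46 nt at -0.241 (p = 8.64e-06) and 98 nt at 0.171 (p = 0.00182) in the authors' deposited table. All 3 overlap exons of ARMCX5.

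Among lincRNA genes, RP11-452F19.3 had the lowest p-value of the calls in the second set, at -0.424 (p = 2.29e-13) for an exon of 174 nt (chr1:223000770-223000943) in the authors' deposited table. Its second event, skipping from a more upstream exon, was at -0.357 with a p of 1 there. LINC00969, now MUC20-OT1, had an exon of 122 nt (chr3:195412689-195412810) at 0.461 (p = 7.35e-06) and 1 of 144 nt at -0.197 (p = 0.00223) in the authors' deposited table. RP11-397A16.1 was at 0.55 (p = 2.89e-05) in an exon of 71 nt (chr18:53453817-53453887) and CTD-2017D11.1 at 0.174 (p = 0.00012) in an exon of 78 nt, both from the authors' deposited table.

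Divergent transcripts, which start beside the promoter of a coding gene, included RP11-529K1.2 (DDX19A-DT) at 0.161 (p = 4.81e-05) in an exon of 160 nt in the authors' deposited table. AC005154.6 (GARS1-DT), beside the glycyl-tRNA synthetase gene, had exons of 98 nt at 0.116 (p = 0.000556) and 123 nt at -0.139 (p = 0.00126) in the authors' deposited table. Of the genes without an entry in GENCODE 29, RP11-15H20.6 was at -0.428 (p = 7.82e-08) in an exon of 75 nt, RP11-706O15.1 at -0.285 (p = 8.72e-08) in 1 of 47 nt, and RP11-640M9.2 at 0.5 (p = 0.00118) and 0.243 (p = 0.000723) in exons of 118 and 99 nt, all in the authors' deposited table. The remaining calls were CTD-2369P2.10 at -0.428, RP11-497H16.5 at 0.384, RP11-274B21.1 at -0.233, CTC-228N24.3 at -0.222, RP11-349A22.5 (PSMA3-AS1) at -0.197, RP11-77K12.1 at -0.143 and AC027612.6 at -0.127 in the authors' deposited table.

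Of the 58 called exons, 34 stood in 1 event and 24 in several. Among the 99 member exons in several events 24.2% were called, beside 14.6% of such exons over the table, and among member exons in 1 event 6.42%, beside 4.55%. An exon counts as called if any event passes, so exons in more events have more chances of a call. For the 24 exons, the other events, those without a call, numbered 41, of which 21 pointed in the direction of the call and 20 in the opposite one, and 31 had a p of 1. The events without a call thus split about evenly between the directions.

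Well-known long noncoding RNA genes mostly carry ordinary symbols and so are not members. A list of 34 well-known genes was written with earlier results of these data known, and it includes members such as PCBP1-AS1 and TTN-AS1. Of the 34, 21 had listed exons, and 11 of 83 exons were called (13.3%), beside 5.73% of all exons, with 6 of them higher in the first set. PCBP1-AS1 and TTN-AS1, whose calls are already given above, held 6 and 1 of these 11. In those of the genes that are not members, 4 of 59 exons were called (6.78%), near the share of all exons. Hosts of small nucleolar RNAs, such as GAS5, SNHG1 and ZFAS1, had 1 of 35 exons called (2.86%), too few exons to set apart from the 5.73% of all exons. That exon was in SNHG17, at -0.281 (p = 0.000613) in the authors' deposited table. The other genes had 10 of 48 called (20.8%), of which 6 in PCBP1-AS1 and 1 in TTN-AS1. The remaining 3 were in FTX at 0.5 (p = 7.41e-11), DLEU2 at 0.584 (p = 0.00217) and HCG18 at -0.231 (p = 0.000576) in the authors' deposited table. FTX lies in the X-inactivation centre and DLEU2 hosts the microRNAs miR-15a and miR-16. Exons of JPX, CRNDE, DLEU1, TUG1 and TP53TG1 were listed and not called.

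In structure, member exons were close to the table in length, with a median of 115 nt against 117 nt and a range of 12 to 2046 nt. Exons of at most 51 nt made up 6.04% against 7.2% of all exons. The length was divisible by 3 in 220 of the 629 (35.0%), against 40.7% over the table, and in 20 of the 58 called exons (34.5%), against 46.0% of all called exons. Exons listed in several events made up 15.7% of the members and 11.6% of the exons of all other genes. Exons of noncoding genes have no reading frame to keep, and 56 member genes are coding, so the shares divisible by 3 pool both kinds.

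GCATG was searched on the sense strand of the exons whose sequence was found, 503 of the 629 members and 24969 of all exons. It occurred in 71 member exons (14.1%), in 4 of 50 called ones (8.0%, 3.15 to 18.8) and in 2895 of all (11.6%). With GCACG added, the shares were 19.5%, 12% and 16.6%. Per kb, GCATG occurred 1.0 times in member exons, 0.586 times in called ones and 0.906 times in all exons. The called exons with GCATG include the PCBP1-AS1 exon of 123 nt, higher in the second set, and the RP11-267N12.3 exon of 88 nt, higher in the first. The element was not searched in flanking introns, where RBFOX proteins are best known to bind.

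Reads of member exons can often come from another gene. A window of 60 nt across a splice junction of the exon, 30 nt on each side, was also found in a transcript of a gene elsewhere for 66 of 503 member exons (13.1%, 10.4 to 16.4), against 3.17% of all matched exons, and for 11 of 50 called ones (22%, 12.8 to 35.2). The share was 39 of 73 (53.4%) for pseudogenes and 2 of 124 (1.61%) for -AS genes. Called exons with such a window lay in the DUXAP genes, in RP11-22B23.1 (80 nt, shared with DDX11 and DDX12P), in LINC00969 (144 nt, shared with SDHAP1) and in RP11-497H16.5, now the beta-glucuronidase pseudogene GUSBP15 (188 nt, shared with several GUSBP copies). The SDHAP4 exon, 1 of 4 with p listed as 0, had no such window. Only windows identical over all 60 nt to an annotated transcript were counted. A copy that differs by 1 base in the window was therefore missed, and lack of a window does not show that reads are unique.

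An overlapping gene held a junction window of 113 of 503 member exons (22.5%), against 3.89% of all matched exons, and of 63 of 85 (74.1%) in protein-coding member genes. An exon of another gene on the opposite strand overlapped 49 of 503 (9.74%), against 2.26%, and 23 of 124 exons of -AS genes (18.5%). The libraries were made with a strand-specific kit, and whether junctions were counted by strand is not given in the sources used here. In the table itself, 21 of 629 member exons (3.34%) stood at a position listed under more than 1 gene, against 0.164% of all exons. Leaving out exons with a window in a gene elsewhere, and all DUXAP exons, left 45 called exons, 42.2% of them higher in the first set. The share called among the exons left is not given here, so this count cannot be set beside the 5.73% of all exons.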

How the data were processed

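The authors deposited 1 table of skipped-exon events in the rMATS layout, per the file headers. Its p-value and FDR columns and the inclusion difference are the authors' own values. Reads were processed with STAR 2.7.3a and hg19, per the submitters' processing notes; the splicing tool's version, annotation and read filters are not given in the sources used here. The effective lengths deposited for the inclusion and skipping forms were read as other values, 94 nt for the skipping form. No name ties the 6 columns of library values to samples, and these columns were not used, so depth, spread between clones and a count model are not given, and p-values carry whatever spread the authors' test took from 2 libraries a set.

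The deposited FDR was repeated from the p-values over all 31408 events (largest gap 1.11e-16). Events were collapsed to exons by position and strand; an exon took its direction from the passing event of lowest p-value. No filter on low values was added. The calling code was run on a simulated table. Planted events were given very low p-values and large differences, and all other events uniform random p-values. Of 200 planted events, 200 were called, with 6 unchanged events called. No reads or libraries were simulated, so this checks the code alone and not the sensitivity of the authors' test. Symbols were matched to GENCODE 29 by gene identifier for 299 of 319 genes. Table positions are not on GRCh38 (27 of the 299 genes lie within their GRCh38 bounds), and none were converted. Sequences came from GENCODE 29 transcripts, matched by exon and intron lengths. The sequences of 3 called exons are not reported here. Overlaps used bedtools 2.31.1, figures matplotlib 3.10.9, and all else scipy 1.17.1, numpy 2.4.6 and pandas 2.3.3 in Python 3.11.15. Wilson 95% intervals cover counting error only and treat exons as independent.

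Members and gene lists were chosen with earlier results of these data known. Named exons were, in each direction, the 12 with the lowest p-value (1 per gene), up to 8 more with a difference of at least 0.5, called exons of the list of known noncoding genes, the 3 genes with most listed exons, and called exons at a position shared with another gene. Other exons named were chosen after their values were seen.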

Additional observations from a re-analysis of the deposited data

How the results depend on the processing

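The count of 58 called exons fell to 37 at an FDR under 0.01 and to 20 with Bonferroni correction over the table. The other alternatives gave 39 to 62. The lowest of these came from 1 exon per gene, which is the 39 of 319 genes (12.2%) set beside 13.7% of all genes above. Shares of all exons called under the other settings are not given here, so these counts cannot be read against the table. The share higher in the first set stayed between 42.2% and 52.8%. The share of exons with GCATG, 14.1%, was 19.5% with GCACG added. Calls in the list of known noncoding genes fell from 11 to 6 with Bonferroni correction. Of the 34 named exons, 28 were still called at an FDR under 0.01, 18 with Bonferroni correction and 28 with a minimum difference of 0.2. Taking the other event of the same exon with the lowest p turned 7 exons: AC005154.6 (98 nt) to -0.5, CTD-2314B22.3 (112 nt) to -0.15, PCBP1-AS1 (38 nt) to 0.218, RP11-640M9.2 (118 nt) to -0.2, RP11-706O15.1 (47 nt) to 0.115, RP11-849H4.2 (167 nt) to 0.334 and TTN-AS1 (157 nt) to -0.334. Their cause was not tested. The alternatives without PCBP1-AS1 and the DUXAP genes, without DUXAP exons and others that share a junction window with a gene elsewhere, and without genes absent from GENCODE 29 were chosen after seeing the data. No paired analysis was possible because the library columns carry no sample name or replicate number; leaving out a library, a count model on junction reads and the search of flanking introns for GCATG were not run. The depth behind each event is unknown here, so an exon that was not called may have had too few reads for a call.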
